A study of Mus musculus with 4 samples.

Results

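The replicative helicase subunit genes Mcm2, Mcm3, Mcm4, Mcm5, Mcm6 and Mcm7, the helicase cofactor gene Mcm10 and the sliding clamp gene Pcna were examined in 2 lists of STAT3 chromatin immunoprecipitation sequencing (ChIP-seq) peaks. These 8 of 21887 protein-coding genes were chosen by their role in replication and on the measured rank of the shared peak beside Mcm5, with results of these data already known. Every peak whose centre lay inside one of them or within 50 kb on either side was taken. This gave 51 of 88765 sham peaks and 26 of 36249 peaks after spinal cord injury (SCI). All mice were C57BL/6 and all tissue was taken 7 days after surgery. Sham mice had a laminectomy at thoracic level T9 alone, and SCI mice had a moderate contusion at that level. Tissue of the injury epicentre, or of the matching sham segment, was dissociated, and each library pooled 3 mice. The labels name no sort for a cell type, and peak lists hold no expression values, so the cell types in the suspension were not checked with markers. Each condition had 1 STAT3 library, so no value below has a replicate check and no test between conditions was run.

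Before S phase, the proteins encoded by Mcm2 to Mcm7 are loaded on origins of replication as a ring of 6 different subunits. The ring forms the replicative helicase together with CDC45 and the GINS complex, and MCM10 takes part in its activation. PCNA is the ring-shaped clamp that tethers DNA polymerases and many repair factors to DNA. Transcription of these genes is known to rise at the G1/S transition under E2F factors, and they serve as markers of proliferating cells, which in an injured spinal cord can include glia, immune cells and vascular cells. STAT3 is the transcription factor that acts downstream of the interleukin-6 family of cytokines.

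All 8 genes had a sham peak within 50 kb and 7 had an SCI peak. Such peaks were common: by the same rule 95.6% of all protein-coding genes had one in sham and 84.2% in SCI, so these counts lie near the background. Sham peaks numbered 8 each at Mcm5, Mcm7 and Pcna, 7 each at Mcm3 and Mcm4, 6 at Mcm2, 4 at Mcm10 and 3 at Mcm6. The median of these 8 counts was 7, beside a median of 5 and quartiles of 3 and 8 over all protein-coding genes, so no gene of the group lay outside the middle range in sham. SCI peaks numbered 7 each at Mcm5 and Mcm7, 4 at Mcm10, 3 at Mcm2, 2 each at Mcm3 and Pcna, 1 at Mcm6 and 0 at Mcm4. Their median was 2.5, beside 2 with quartiles of 1 and 3 over all genes. Mcm5 and Mcm7 stood at the upper end in SCI, where 95.5% of all protein-coding genes had fewer peaks. The 8 genes had a median length of 16.3 kb, close to the 17.2 kb of all protein-coding genes.

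**Figure D1:**
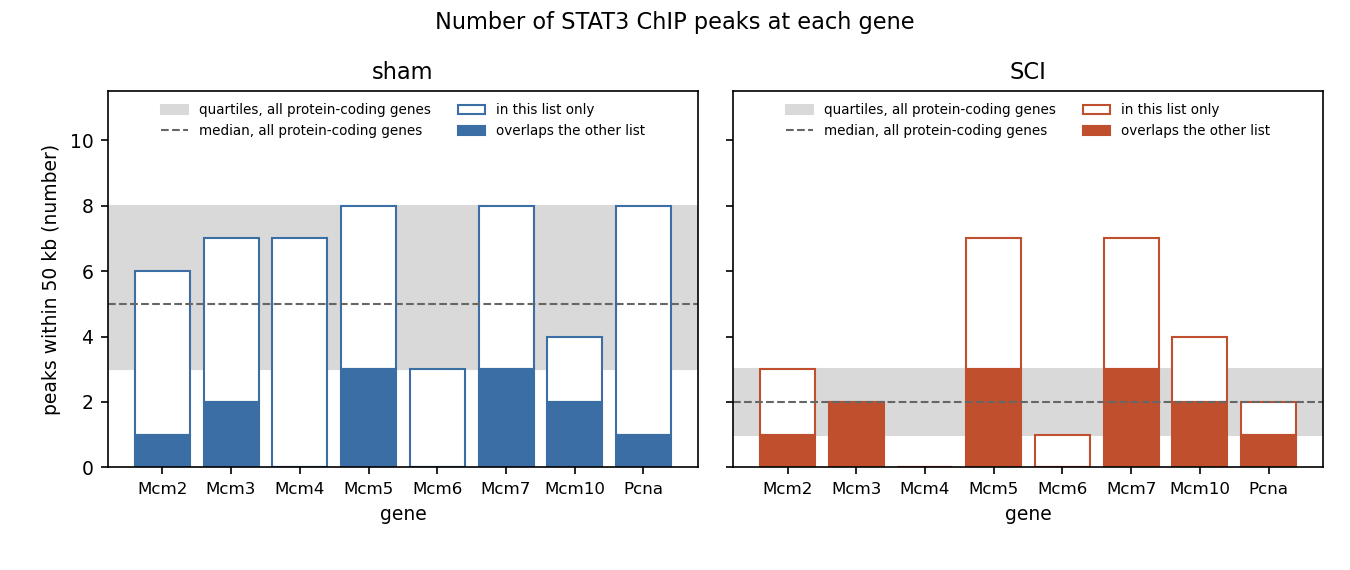
Number of STAT3 peaks (vertical axis) with a centre inside each gene or within 50 kb, in sham (left) and SCI (right). Filled parts are peaks that overlap a peak of the other list, the dashed line and grey band are the median and quartiles over all protein-coding genes, and only Mcm5, Mcm7 (7 each) and Mcm10 (4) in SCI rise above the band, while Mcm4 has 0 SCI peaks.

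Within 5 kb all 8 genes had a sham peak, beside 66.7% of protein-coding genes, and 6 had an SCI peak, beside 43.9%. Inside the gene itself 5 had a sham peak (background 51.0%) and 3 an SCI peak (33.4%). A shared position, an SCI peak that overlapped a sham peak by at least 1 bp, lay within 50 kb of 6 genes (41.5% of all protein-coding genes) and within 5 kb of 5 of them (16.5%), but inside only 1 of them, Mcm7 (12.4%). Presence and sharing of peaks were part of how the group was chosen, so these counts and the shares that follow are descriptions, and nothing is read from their distance to the background. Of the 26 SCI peaks 12 were shared, 46.2%, where the whole SCI list had 21.6% and SCI peaks within 50 kb of any protein-coding gene 23.0%. The same 12 positions made up 23.5% of the 51 sham peaks, where the whole sham list had 8.84%. The peaks lie in 8 loci and are not independent of each other.

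Most of these peaks were not in the 8 genes themselves, and many of the sham peaks lay in a neighbouring gene. The windows added 50 kb on either side of genes with a median length of 16.3 kb, so most of each window lay outside the gene. Evenly placed peaks would also lie mostly outside the 8 genes. The share of the windows that neighbouring genes cover was not counted, so the places that follow are descriptions. Of the 51 sham peaks 7 lay inside one of the 8 genes, 9 lay outside any gene with one of the 8 as the nearest, 27 lay inside another gene and 8 were nearer to another gene. For the 26 SCI peaks these numbers were 3, 8, 6 and 9. The authors' score, a value per peak whose scale is not given and may differ between the lists, is printed to describe each peak, and the lists are set against each other by position in the list alone. It was at or above the list median for 36 of the 51 sham and 16 of the 26 SCI peaks. The sham peak just inside the 50 kb limit lay 49.9 kb from Mcm2 with a score of 20.2, and the nearest one beyond it 52.1 kb from Mcm6 with a score of 28.4. In SCI the outermost peak counted lay 41.0 kb from Pcna with a score of 11.3, and the nearest one beyond the limit 51.6 kb from Mcm6 with a score of 5.82.

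**Figure D2:**
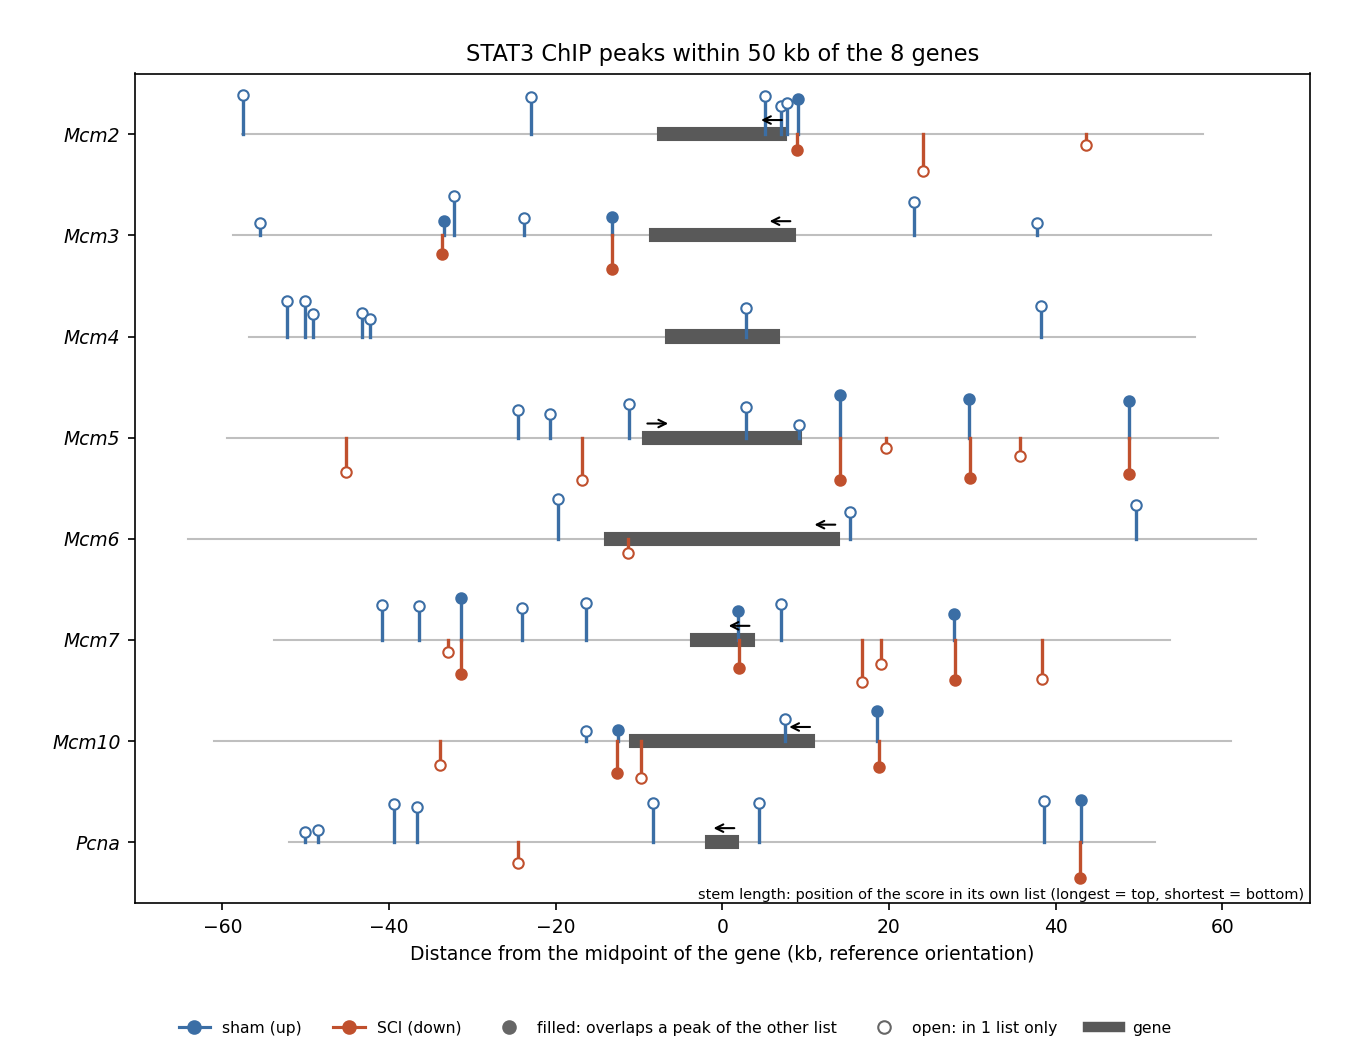
Position of each peak as distance in kb from the midpoint of the gene (horizontal axis) for the 8 genes (rows), with sham stems upward and SCI stems downward. Stem length shows the position of the score within its own list, filled heads mark peaks that overlap a peak of the other list, grey boxes are genes and arrows mark the 5′ end where the strand was at hand. The 3 shared positions of Mcm5 all lie on 1 side of the gene, beyond its 3′ end, and Mcm4 carries sham stems only.

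Mcm5 (gene ID 17218, GRCm38 chromosome 8, 75109468 to 75128439, plus strand), a subunit at the gate through which the ring opens, had the strongest shared position of the group. The SCI peak at 75133093 to 75133155 scored 31.5 and ranked 215 of 36249, the top 0.593% of its list. The sham peak at 75133088 to 75133186 scored 48.4 and ranked 370 of 88765, the top 0.417%. Both lay 4.7 kb beyond the 3′ end of the gene and 23.7 kb from its 5′ end, outside any annotated gene, and the sham peak covered all 63 bp of the SCI peak. Only 14 of the 7845 shared positions of the genome reached the top 1% of both lists, and 0.0914% of protein-coding genes had one within 50 kb. This pair was the reason for choosing the group, so its rank is no independent finding. Both peaks were narrow, 99 bp in sham and 63 bp in SCI, where the usual widths were 190 and 164 bp. Narrow peaks made up 0.995% of the sham list but 56.6% of its top 1%, and 0.610 and 39.5% in SCI. Sharing was also more common among such peaks. Of narrow peaks 29.8% (sham) and 50.2% (SCI) were shared, and of top 1% peaks 30.7 and 55.0%. The whole lists had 8.84 and 21.6%. Ranked by score times width, the Mcm5 pair fell to rank 3536 in sham (top 3.98%) and 5885 in SCI (top 16.2%). What sets the peak width in these lists was not tested.

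A pair of further shared positions lay farther out on the same side of Mcm5. The nearer one, 20.1 kb (sham) and 20.2 kb (SCI) beyond the gene, scored 17.3 in sham (75148476 to 75148665, top 12.4%) and 16.0 in SCI (75148558 to 75148721, top 7.40%). At the farther one, 39.3 kb out, the sham peak at 75167674 to 75167863 covered the SCI peak at 75167689 to 75167852 with centres 2 bp apart, and the scores were 14.9 (top 17.0%) and 11.8 (top 17.7%). All 3 shared positions beyond Mcm5 thus stood in the top 20% of both lists, and Mcm5 was the gene nearest to each. Only 1 other shared position of the group did so, the one near Pcna. The 20% limit was set after the lists were seen, and the rank of the Mcm5 pair was used to choose the group. The share of all shared positions that reach this limit was not counted, so nothing is read from these ranks.

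On the 5′ side of Mcm5 the lists differed in their peaks. A strong SCI peak at 75101994 to 75102157, with a score of 24.0 and rank 633 (top 1.75%), lay 7.39 kb before the 5′ end, in the gap between Mcm5 and Hmox1, and had no sham peak over it. Hmox1, the gene of the inducible heme oxygenase that degrades heme, was the nearer gene at 1482.5 bp. Sham instead had a peak 1.68 kb before the 5′ end of Mcm5 (75107692 to 75107881, score 12.3, top 24.8%) and 2 peaks inside Hmox1. Inside Mcm5 itself only sham had peaks, at 75121668 to 75121857 (score 9.98, top 35.5%) and at 75128058 to 75128247 (score 5.42, top 86.3%).

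Mcm7 (gene ID 17220, chromosome 5, 138164583 to 138172111, minus strand) was the only gene of the group with a shared position inside it. The sham peak at 138170129 to 138170318 scored 9.54 (top 38.6%) and the SCI peak at 138170231 to 138170394 scored 7.92 (top 43.4%), both in the middle of their lists. They lay 1.89 and 1.80 kb downstream of the outer 5′ end of the gene, and a second annotated start inside the gene lay nearer to both. The peaks had 88 bp in common, so they no longer counted as shared when at least 50% of each peak had to overlap. Mcm7 also hosts the hairpins Mir106b, Mir93 and Mir25, and the peaks lay upstream of all 3 of them, 4406 bp (sham) and 4495 bp (SCI) from Mir106b, the nearest. The RefSeq mature sequences below (GRCm38.p6, chromosome 5, minus strand) are shown because these miRNAs are transcribed within the peak-bearing gene. Capitals mark the seed, bases 2 to 8. The seed is identical in miR-106b-5p and miR-93-5p and differs in miR-25-3p.
mmu-miR-106b-5p (chr5:138165787-138165807): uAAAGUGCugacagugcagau
mmu-miR-93-5p (chr5:138165574-138165596): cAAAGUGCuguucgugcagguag
mmu-miR-25-3p (chr5:138165332-138165353): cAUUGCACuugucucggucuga

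The strongest peaks near Mcm7 lay outside it and at different places in the lists. In sham the highest was a peak between Zscan21 and Zfp113, a pair of zinc-finger genes, 27.6 kb beyond the 3′ end of Mcm7 (138136866 to 138137055, score 48.3, rank 375, top 0.422%). It was shared, but the SCI peak there (138136885 to 138137048), with its centre 6 bp away, scored 10.3 and stood in the top 24.1%. The highest SCI peak lay inside Taf6, the gene of a TFIID subunit, 13.0 kb before the 5′ end of Mcm7 (138185028 to 138185191, score 30.3, rank 248, top 0.684%), with no sham peak over it. The third shared position, beside Mblac1, scored 8.43 in sham (138196098 to 138196287, top 47.2%) and 15.9 in SCI (138196187 to 138196350, top 7.55%). Mcm5 and Mcm7 were thus the only genes of the 8 with a top 1% peak of each list within 50 kb, which 0.388% of protein-coding genes had. Counted by list, 2 of 8 had a top 1% sham peak (background 6.45%) and the same 2 a top 1% SCI peak (2.61%). Score ranks, and the Mcm5 pair in particular, were used to choose the genes, so nothing is read from these counts.

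Mcm2 (gene ID 17216, chromosome 6, 88883474 to 88898780, minus strand) encodes a subunit that binds histones at the fork as well as serving in the ring. Of the 6 sham peaks within 2 kb of a 5′ end, 3 were at Mcm2. This count covers the 7 genes of known strand, all but Mcm4. Such peaks were not counted for all protein-coding genes, so the number is a description. Sham had 4 peaks between 2.58 kb downstream and 1.47 kb upstream of the 5′ end. Those inside the gene lay at 88896104 to 88896293 (score 18.1, top 11.2%) and 88898141 to 88898330 (score 9.10, top 41.4%). The peak at 88898836 to 88899025 (score 10.7, top 32.1%) was centred 151 bp before the 5′ end, and the outermost of the 4, at 88900159 to 88900348 (score 13.5, top 20.7%), was shared. Over it SCI had a peak at 88900075 to 88900238 near the bottom of its list (score 5.82, top 78.0%), with centres 97 bp apart and 80 bp in common. The highest SCI peak near Mcm2 lay 16.4 kb upstream inside the noncoding gene Gm36268 (88915104 to 88915267, score 12.3, top 15.9%), with no sham peak over it. In sham the highest lay 49.9 kb beyond the 3′ end (88833486 to 88833675, score 20.2, top 8.57%), and the gene nearest to it was Abtb1 at 2333.5 bp.

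The sham peak at the start of Mcm2 was the only peak of either list over a promoter window of the group. The windows, 250 bases before to 50 after an annotated start (RefSeq, GRCm38.p6), were at hand for 7 of the 8 genes, all but Mcm4, with 2 windows for Mcm7. Among 17492 protein-coding genes with such a window, 1.75% had a sham peak over it and 0.720% an SCI peak. The Mcm2 window is printed because the whole 190 bp peak falls in it. It is read 5′ to 3′ on the minus strand, and capitals mark the bases under the peak, positions 6 to 195 of the window.
Mcm2 promoter (chr6:88898731-88899030): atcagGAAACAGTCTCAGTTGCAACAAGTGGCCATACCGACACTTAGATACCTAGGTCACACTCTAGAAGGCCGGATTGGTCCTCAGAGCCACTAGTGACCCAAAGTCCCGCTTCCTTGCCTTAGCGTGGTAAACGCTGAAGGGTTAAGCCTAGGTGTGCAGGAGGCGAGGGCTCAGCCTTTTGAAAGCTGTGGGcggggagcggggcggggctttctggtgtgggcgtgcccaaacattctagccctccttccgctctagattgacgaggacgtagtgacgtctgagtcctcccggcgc
The letters TTCNNNGAA, the core of a STAT site with N for any base, were found 0 times in this window, and CCAAT, the box bound by NF-Y, was found 1 time under the peak. Matches were sought on both strands and are descriptions of letters.

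A second peak with known bases lay farther from the group, at the start shared by Taf6 and Cnpy4, 15.3 kb before the 5′ end of Mcm7 (SCI, score 7.09, top 52.3%, no sham peak over it). Its 164 bases are printed on the plus strand, since all of them fall in the Cnpy4 window, and TTCNNNGAA was found 0 times in them.
SCI peak at Taf6 and Cnpy4 (chr5:138187331-138187494): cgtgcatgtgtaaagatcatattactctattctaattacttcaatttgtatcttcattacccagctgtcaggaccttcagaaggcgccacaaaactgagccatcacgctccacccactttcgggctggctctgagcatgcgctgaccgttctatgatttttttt

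Letters in the promoter windows of the group were counted as well. The genes were chosen by their role in replication and are known to respond to E2F factors, and the motifs were chosen after the lists were seen. Nothing is therefore read from the distance of these counts to the background. An E2F-type site, TTTNGCGC on either strand, was found in 4 of the 7 genes with a window, Mcm3, Mcm5, Mcm6 and Mcm7, and in 2.00% of the 17492 genes. CCAAT was found in all 7, beside 42.3% of genes, and the GC box GGGCGG in 6, all but Mcm5, beside 49.2%. TTCNNNGAA was found in Mcm5 alone, beside 8.92% of genes, and its stricter form TTCCNGGAA in none, beside 1.38%. No peak of either list lay over the E2F-type or STAT-type letters of these windows. The stretches below show each gene's E2F-type match nearest to the 5′ end of its window in capitals, with up to 10 bases on either side, and then the STAT-type match of Mcm5. In Mcm5 and Mcm6 matches on both strands overlap, so the capitals run over 12 bases.
Mcm3 (chr1:20820263-20820284, minus strand): cttgggaagtTTTGGCGCcaag
Mcm5 (chr8:75109346-75109373, plus strand): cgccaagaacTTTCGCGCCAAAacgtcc
Mcm6 (chr1:128359798-128359825, minus strand): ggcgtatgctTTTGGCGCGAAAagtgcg
Mcm7 (chr5:138171850-138171877, minus strand): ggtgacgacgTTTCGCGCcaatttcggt
Mcm5, STAT-type (chr8:75109260-75109288, plus strand): gggctaggttTTCTCCGAAggcctaaggt

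Mcm3 (gene ID 17215, chromosome 1, 20802966 to 20820312, minus strand), the ring subunit that docks on the origin-bound loading complex, had no peak inside it in either list. Both SCI peaks near it were shared. At the position 4.56 kb beyond its 3′ end, the sham peak at 20798307 to 20798496 covered the SCI peak at 20798322 to 20798485 with centres 2 bp apart. Its score was low in its list in sham (6.40, top 71.6%) and higher in SCI (10.3, top 24.5%). The other shared position, inside the cytokine gene Il17f, was low in both lists, with scores of 5.71 in sham (20778108 to 20778297, top 82.2%) and 5.93 in SCI (20777976 to 20778139, top 69.6%). The highest sham peak near Mcm3 also lay in Il17f (20779360 to 20779549, score 19.3, top 9.64%) and was in sham alone.

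Mcm6 and Mcm4 had no shared position. Mcm6 (gene ID 17219, chromosome 1, 128331575 to 128359705, minus strand), a ring subunit, had the fewest sham peaks. The highest lay 5.62 kb beyond its 3′ end inside the lactase gene Lct (128325864 to 128326053, score 21.7, top 7.19%), and another 1.22 kb before the 5′ end (128360835 to 128361024, score 8.70, top 45.2%). Its 1 SCI peak, inside the gene at 128334196 to 128334359, scored 5.48 (top 82.9%). Mcm4 (gene ID 17217, chromosome 16, 15623897 to 15637400), a ring subunit whose gene lies next to Prkdc, had 7 sham peaks. Of these 1 lay inside the gene (15633376 to 15633565, score 9.16, top 41.0%), 5 lay in Ube2v2, with the highest at 15580428 to 15580617 (score 14.2, top 18.9%), and 1 lay in Prkdc, the gene of the DNA-dependent protein kinase. The nearest SCI peak to Mcm4 was 209 kb away, beyond Prkdc. A sham peak without an SCI peak within 50 kb was found at 13.0% of protein-coding genes, so 1 gene of 8 is close to the background.

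Mcm10 (gene ID 70024, chromosome 2, 4990724 to 5012791, minus strand) had 4 peaks in each list, although the sham list as a whole was 2.45 times as long. The highest SCI peak lay inside the gene near its 3′ end (4991932 to 4992095, score 12.1, top 16.4%) and was not in sham. Sham had a peak inside the gene 3.46 kb from the 5′ end (5009232 to 5009421, score 7.07, top 60.4%) that was not in SCI. A shared position 1.5 to 1.6 kb beyond the 3′ end stood near the bottom of the sham list (4989116 to 4989305, score 5.10, top 92.0%) and higher in SCI (4989057 to 4989220, score 9.42, top 29.9%). The other lay 7.6 to 7.7 kb upstream, at the edge of Optn, the autophagy receptor gene, with scores of 10.1 in sham (5020290 to 5020479, top 35.0%) and 7.48 in SCI (5020428 to 5020591, top 48.9%).

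Pcna (gene ID 18538, chromosome 2, 132249286 to 132253180, minus strand) had no peak inside it, and 8 sham but 2 SCI peaks around it. The strongest lay in Cds2, the neighbouring gene of phosphatidic acid metabolism. There the sham peak at 132294195 to 132294261, 67 bp wide, scored 36.3 (rank 1200, top 1.35%), and an SCI peak at 132294057 to 132294220 shared 26 bp with it and scored 11.3 (top 19.7%). Sham also had a peak in Cds2 at 132289732 to 132289921 (score 29.7, top 2.85%). The nearest sham peak to Pcna lay inside Cds2 as well, 2.45 kb before the 5′ end of Pcna (132255534 to 132255723, score 20.2, top 8.67%). Neither was in SCI. The nearest SCI peak lay 22.6 kb beyond the 3′ end (132226640 to 132226803, score 6.48, top 63.8%).

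Across the 12 shared positions the ranks in the lists went either way. The sham peak stood higher in its list than the SCI peak at 7 positions and lower at 5. The median position was the top 27.9% in sham and the top 24.3% in SCI. In 8 of the 12 both peaks were at or above the median score of their lists, and in 4 both were in the top 20%. The same shares were not counted over all 7845 shared positions, so these 2 counts are descriptions. Centres differed by 2 to 145 bp with a median of 74 bp, and the overlaps ran from 26 to 164 bp. When at least 50% of each peak had to overlap, 7 of the 12 still counted. The 5 that did not were those of Mcm2 and Pcna, the one inside Mcm7, and those of Mcm3 in Il17f and of Mcm10 beside Optn.

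**Figure D3:**
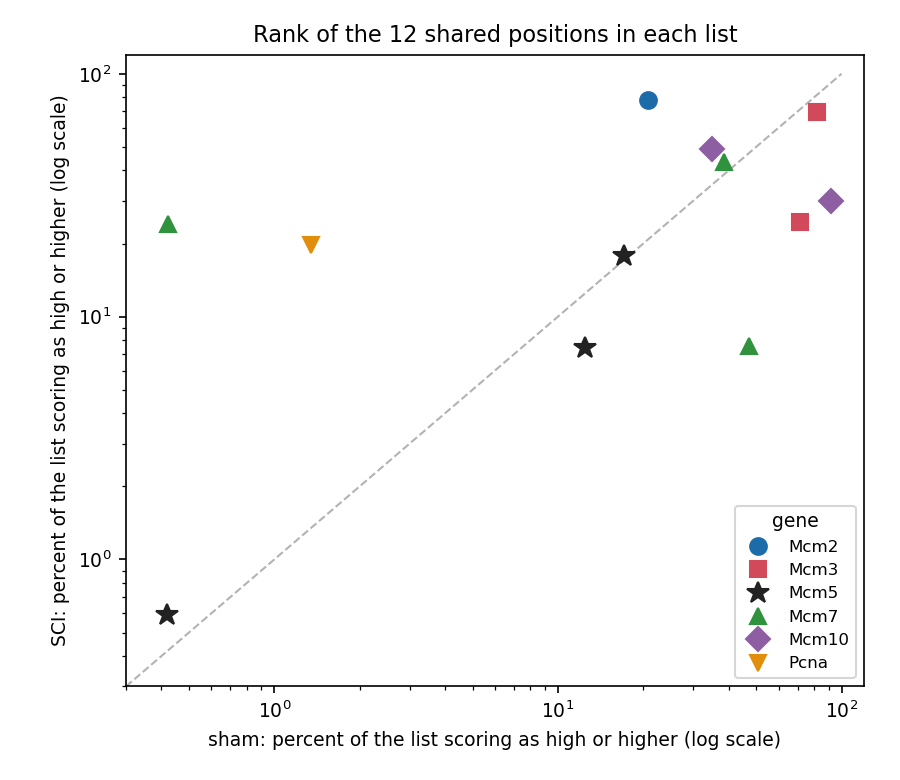
Each point is 1 of the 12 shared positions, placed by the percent of the sham list (horizontal, log scale) and of the SCI list (vertical, log scale) that scores as high or higher, with the symbol giving the gene and the dashed line equal percentages. The Mcm5 position at 0.417 and 0.593% is the only one near the lower left corner, while the strongest sham positions near Mcm7 (0.422%) and Pcna (1.35%) lie at 24.1 and 19.7% in SCI.

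The wider replication machinery was described with a list of 60 other genes, from origin licensing to nucleotide supply. Of these 59 had a sham peak within 50 kb (98.3%), 58 an SCI peak (96.7%) and 33 a shared position (55.0%), beside 95.6, 84.2 and 41.5% of protein-coding genes. Their median length was 26.1 kb, above the 17.2 kb of all protein-coding genes. The median number of peaks was 7 in sham and 3 in SCI. Within 5 kb the list had a shared position at 8 genes (13.3%, background 16.5%), and inside the gene at 7 (11.7%, background 12.4%). A top 1% sham peak lay within 50 kb of 6 of the 60 (10%, background 6.45%), a top 1% SCI peak within 50 kb of 2 (3.33%, background 2.61%), and peaks of the top 1% of each list near 0, where the background of 0.388% is under 1 gene in 60. An E2F-type site was found in 9 of the 49 genes with a promoter window (18.4%, beside 2.00% of the 17492 genes). This list too was chosen by role in replication, so nothing is read from that share. A peak over the window was found in 0 of the 49 in either list, which at backgrounds of 1.75% (sham) and 0.720% (SCI) tells nothing about the list.

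The role groups are small and were formed after the lists were seen, so their counts within 50 kb are given as descriptions, beside 95.6% (sham), 84.2% (SCI) and 41.5% (shared) of all protein-coding genes. All 9 origin licensing genes had peaks of both lists and 8 had a shared position. Of the 13 genes of helicase activation and related MCM proteins 12 had a sham peak, 12 an SCI peak and 5 a shared position. Gins4, a GINS subunit gene, was without a sham peak, and Gins3, another, without an SCI peak, as was Rnaseh2b, a subunit gene of the enzyme that removes ribonucleotides from DNA. Among the 12 polymerase and primase genes 8 had a shared position, among the 8 genes of the clamp loader and RPA 5, among the 6 of Okazaki fragment processing 2, and among the 4 of fork protection 1. In the remaining 8, of topoisomerases, chromatin assembly and nucleotide supply, 4 had one.

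The strongest peaks near genes of the wider list lay in their neighbours, which with 50 kb added on either side of each gene is a description. In sham these were 23.1 kb from Top2a inside Igfbp4 (chromosome 11, 99047236 to 99047308, rank 146), 21.5 kb from Fen1 inside Myrf (chromosome 19, 10225867 to 10225929, rank 456), 12.5 kb from Pold4 inside LOC102631992 (chromosome 19, 4246107 to 4246171, rank 479) and 8.36 kb from Topbp1 inside Cdv3 (chromosome 9, 103358691 to 103358880, rank 634). Myrf encodes a transcription factor of myelinating oligodendrocytes. The sham peaks near Top2a, Fen1 and Pold4 were narrow, 73, 63 and 65 bp wide beside the usual 190 bp. In SCI they were 22.3 kb from Gmnn, the gene of the licensing inhibitor geminin, inside Ripor2 (chromosome 13, 24729443 to 24729606, rank 42), 19.8 kb from Tipin inside Dis3l (chromosome 9, 64325134 to 64325297, rank 92), 33.1 kb from Mcmbp inside Sec23ip (chromosome 7, 128773474 to 128773637, rank 367) and 12.3 kb from Rfc5 inside Wsb2 (chromosome 5, 117366838 to 117366897, rank 437). The SCI peak near Rfc5 was narrow too, 60 bp wide beside the usual 164 bp. The best shared positions of the list were those near Gmnn (top 0.116% in SCI and 3.76% in sham), Rpa2 (3.47 and 3.81%), Rfc5 (1.21 and 8.09%) and Fen1 (9.05 and 0.514%). Each stood lower in at least 1 list than the Mcm5 pair, though the SCI peak near Gmnn stood higher than the SCI peak beside Mcm5. The rank of the Mcm5 pair was used to choose the group, so nothing is read from this.

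**Figure D4:**
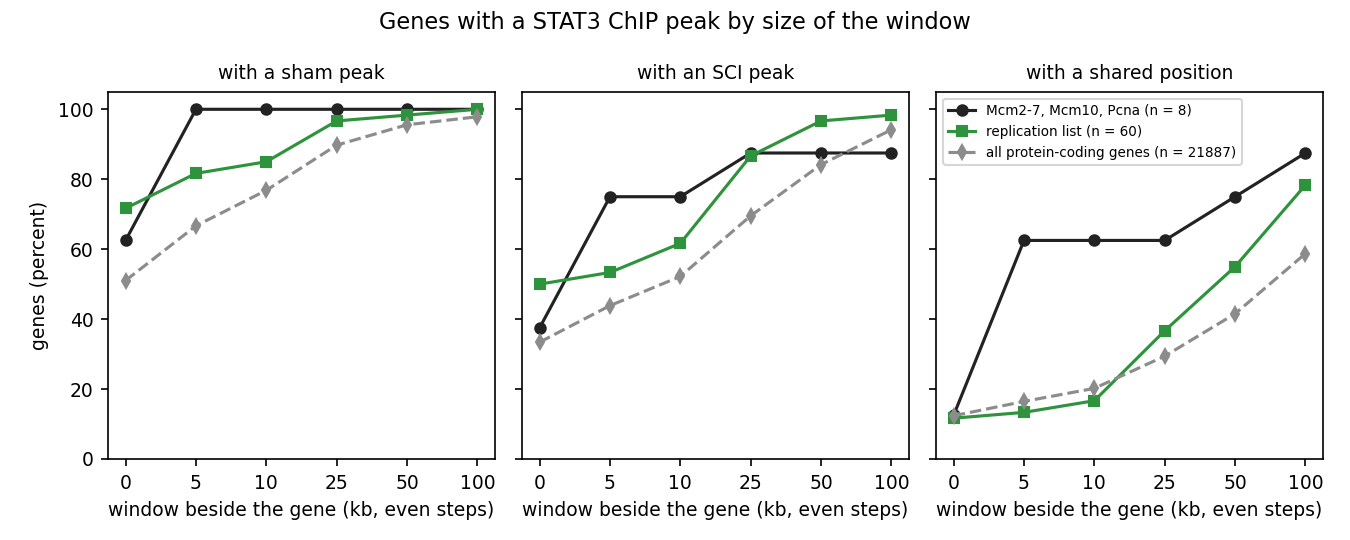
Percent of genes (vertical axis) with a sham peak (left), an SCI peak (middle) or a shared position (right) for windows of 0 to 100 kb beside the gene (horizontal axis, even steps), for the 8 helicase and clamp genes, the 60 other replication genes and all 21887 protein-coding genes. The 3 groups come close together for sham peaks at 50 kb (100, 98.3 and 95.6%), and for shared positions they stand at 12.5, 11.7 and 12.4% inside the gene, at 62.5, 13.3 and 16.5% within 5 kb and at 87.5, 78.3 and 58.7% within 100 kb. Sharing was used to choose the 8 genes, so the gaps are descriptions.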

How the data were processed

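STAT3 ChIP-seq libraries of sham and injured mouse spinal cord were compared through 2 peak lists, each matched to its sample by title. Bowtie2 and the build mm10 are named, per the submitters' processing notes, without further settings. Peak calling (program, control, threshold) was not given in the sources used here. Input libraries were not analysed here. Each deposited list holds a score per peak, 5 or more in every row, and a −log10 value in the column that usually holds a q-value, from 3.27 to 4.05 (sham) or from 3.22 to 4.36 (SCI). They give no read counts, so depth is unknown, and scores of the lists may differ in scale, so the lists were set against each other by rank within a list, and printed scores only describe a peak. "Top" percentages are rank over list length.

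Only peaks on chromosomes 1 to 19, X and Y entered. Sharing meant an overlap of 1 bp or more between the lists. Genes came from RefSeq (GRCm38.p6, with the primary coordinates of mm10), and all 8 genes and all 60 of the wider list matched by symbol. The members, lists and alternatives were chosen with earlier results of these data known. Named are all 8 genes with their shared positions, the peaks inside them and the best peak per list, and, of the wider list, 4 genes per peak list by best rank and 4 by best shared position. Other peaks named were chosen after their values were seen. Strand was known only for genes with a promoter window. The motifs, the top 1% and 20% limits and the role groups of the wider list were chosen after the lists were seen. Window and overlap counts were checked on simulated peaks. Alternatives were other score limits, list lengths, windows, overlap rules and rankings. The computations ran in Python 3.11.15 with pandas 2.3.3 and numpy 2.4.6, and plots with matplotlib 3.10.9.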

Additional observations from a re-analysis of the deposited data

How the results depend on the processing

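Of 76 values of 10 results recomputed under other settings, 52 stayed within 1.5 times the reported value and 24 did not. The 51 sham peaks became 7 inside the genes, 16 within 5 kb, 20 within 10 kb, 31 within 25 kb and 88 within 100 kb, and 31 when only as many top-scoring sham peaks were kept as SCI has. The 26 SCI peaks became 3 inside, 7 within 5 kb and 9 within 10 kb, and 16 when peaks under the median score were dropped. Shared SCI peaks went from 12 to 1 inside, 5 within 5 kb and 6 within 10 kb, and to 7 with at least 50% reciprocal overlap. Without scores of the root form, sham peaks numbered 50, SCI peaks 20 and shared SCI peaks 10. Counted inside the gene only, 5 of the 8 genes had a sham peak, 3 an SCI peak and 1 a shared position. The wider list had an SCI peak at 30 genes inside, 32 within 5 kb and 37 within 10 kb. These narrower or wider windows hold fewer or more positions by construction. Ranked by score times width, the Mcm5 peaks moved to 3536 in sham and 5885 in SCI, and by the −log10 value to rank 1 in both, tied with 27984 sham and 11378 SCI peaks at the highest value. Depth is unknown, so a missing peak may lie under the authors' threshold. No paired analysis was possible because each condition has 1 STAT3 library.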
